A study of Mus musculus with 4 samples.

Results

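The solute carriers are the large superfamily of membrane proteins that move amino acids, sugars, ions, metals, vitamins and metabolites across the plasma membrane and the membranes of organelles. Described here are the solute carriers expressed in 4T1, a mouse mammary carcinoma line that spreads to distant organs. A member is a gene whose symbol is Slc, a family number, a letter and a number, represented by its brightest array row, with a mean of at least 6 log2 units over the 4 arrays. Of 30142 named genes on the arrays, 351 carried such a symbol and 122 of these reached that level. The rule left out 8 carriers of amino acids, glucose and lactate (Slc7a11, Slc7a5, Slc3a2, Slc7a1, Slc1a4, Slc2a1, Slc16a1 and Slc16a3), 7 of which reached the level, so 115 members remained. Members were thus chosen by their mean level over all 4 arrays, and the difference between the groups did not enter the rule. One member, Slc49a4, carries this symbol only after an update of the array's older annotation.

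The study compared 4T1 cells labelled as having MCT-1 silenced by a short hairpin RNA (shMCT-1, 2 arrays) with 4T1 cells carrying a scramble control (NC, 2 arrays). Per the labels, shMCT-1 clones were kept in 0.5 μg/ml puromycin over 2 weeks, and a selection of the NC cells is not stated. The labels call the replicates biological and independent, but do not tell whether a group came from 1 clone or a pool, so each SD and p-value covers the spread between these samples only. Total RNA was hybridised to Affymetrix arrays read at the gene level, and every value below is a log2 expression level or a difference of such levels, shMCT-1 minus NC.

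Carriers work as uniporters, as cotransporters that use the sodium or proton gradient, or as exchangers, and their family number groups them by sequence rather than by substrate. Tumour cells are known to rely on them for glutamine and other amino acids, for nucleosides, for iron and zinc, and for the traffic of metabolites between cytosol and mitochondria. In bulk samples such as these, fewer cells that use a gene and less RNA per cell cannot be told apart.

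Mcts1, the gene that encodes MCT-1, was at 7.81 and 7.89 in the arrays labelled shMCT-1, against 7.86 and 8.05 in NC. The groups overlapped and a lower level was not detected (difference -0.10, SE 0.122, adjusted p = 0.945, limma), so the arrays are named by their label. The epithelial markers Epcam, Krt8, Krt18, Cdh1 and Krt14 had means of 12 to 16.6. Of these 5, 2 were lower with separate arrays. Krt14, a keratin of basal cells, was at 11.12 and 11.20 in the arrays labelled shMCT-1, against 12.92 and 12.76 in NC, and Cdh1, E-cadherin, was at 14.18 and 13.94, against 14.52 and 14.20 in NC. Their part in the results below was not tested. Of 5 leukocyte markers Ptprc, Adgre1 and Cd3e, like all measured fibroblast and endothelial markers had means of at most 4.00, beside array medians of 3.68 to 3.73. The macrophage genes were higher, with Csf1r at 5.27 and 4.47 in the arrays labelled shMCT-1 and 6.07 and 4.61 in NC, and Cd68, a lysosomal protein that is also made elsewhere, at 8.55 and 9.0 and 10.15 and 8.26 in the same order. Both peaked in NC replicate 1, and their part in the results was not tested. NC replicate 1 stood apart from the other arrays. The median of 9 interferon-stimulated genes was 6.23 and 5.15 in the arrays labelled shMCT-1, against 8.85 and 5.66 in NC replicates 1 and 2, and the median of 10 integrated stress response genes was 7.5 and 7.37 in the arrays labelled shMCT-1, against 8.39 and 6.95 in NC. Values without that array are therefore given beside many of the differences that turn on it, but not beside all. For example, Slc35a4, Slc39a14 and Slc20a2 differed by 0.15, 0.17 and 0.12, and by -0.34, -0.21 and -0.19 without it. With NC replicate 1 left out, both arrays labelled shMCT-1 are set against NC replicate 2 alone, so a difference between replicates enters the value.

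Across the 115 carriers, none passed the threshold of 0.05 in limma after adjustment over all 65956 rows, and the lowest adjusted p was 0.882. At an unadjusted p under 0.05 there were 16 members, 5 higher and 11 lower, which is 13.9% of members beside 5.61% of all rows and 8.72% of the other 10337 named genes with a mean of at least 6. An unadjusted p under 0.05 with at least a 1.5-fold difference was met by 4 members, Slc27a1, Slc39a4, Slc38a7 and Slc35d2, all lower, and by 0 higher ones. That is 3.48% of members on the lower side, beside 0.55% of all rows and 1.41% of the other named genes, and on the higher side 0.676% of all rows and 0.706% of the other named genes. The median difference was -0.01 over the members (quartiles -0.16 and 0.18) and 0.018 over the other named genes of that level. Means were higher in 55 members (47.8%, against 56.4% of all rows and 53.1% of the other named genes) and lower in 60 (52.2%, against 43.6% and 46.9%). This split turned with single arrays, at 67 higher and 48 lower when shMCT-1 replicate 1 was left out and 37 against 78 for shMCT-1 replicate 2. Leaving out NC replicate 1 gave 39 higher and 76 lower, and leaving out NC replicate 2 gave 63 and 52. At least a 1.5-fold difference in either direction was seen in 10 members, 8.7%, against 2.43% of all rows and 4.99% of the other named genes.

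The 2 groups of arrays did not overlap in 38 members, 33% of them, against 33.9% of all rows and 39.4% of the other named genes. Of these 38, 29 were lower in both arrays labelled shMCT-1 (25.2%, against 14% of all rows and 20.8% of other named genes) and 9 were higher (7.83%, against 19.8% and 18.5%). The total share was thus near the background. Which direction was more common depended on the arrays included, since leaving out shMCT-1 replicate 1 gave 52 higher and 35 lower members and leaving out NC replicate 2 gave 54 and 42. Without shMCT-1 replicate 2 the counts were 10 and 47, and without NC replicate 1 they were 17 and 49. Fewer arrays separate more readily, so these counts are not comparable with the shares above, and their shares over other genes are not given. NC replicate 1 was the outer of the NC arrays in 23 of the 29 lower and 7 of the 9 higher members. In separate groups 1 NC array is always the outer one, and leaving it out must shrink the difference. Without NC replicate 1 the difference shrank by over 1.5 times in 13 of the 29 and in 2 of the 9.

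**Figure D1:**
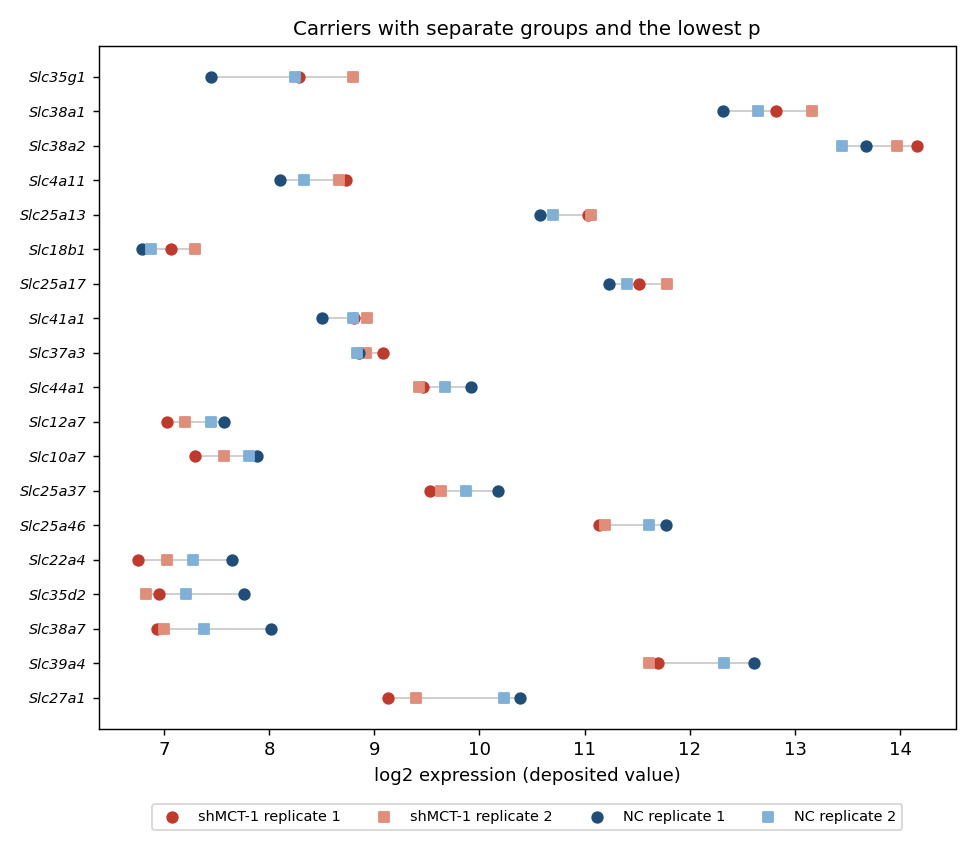
Log2 expression of the 9 carriers with both arrays labelled shMCT-1 above both NC arrays and of the 10 with the lowest p among those below, ordered from the highest to the lowest difference. Each point is 1 array, with the arrays labelled shMCT-1 in red and the NC arrays in blue, and grey lines span the 4 arrays. Slc27a1 and Slc39a4 show the widest gaps between the groups, while in Slc41a1 the nearest arrays lie at 8.81 and 8.80.

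By level, the brightest members were mitochondrial. Slc25a5, the main ADP/ATP exchanger of dividing cells, was at 17.71 and 17.92 in the arrays labelled shMCT-1 and 17.68 and 17.95 in NC, and its close relative Slc25a4 was at 15.68 and 15.89 in the arrays labelled shMCT-1 and 15.78 and 16.01 in NC. Both overlapped between the groups, and probes of such near copies can pick up both transcripts, which makes each value uncertain. Slc25a24, a calcium-regulated carrier of ATP-Mg and phosphate, followed at 14.18 and 14.46, against 13.97 and 14.28 in NC, a difference of 0.20 that was 0.038 without NC replicate 1. Among members of the plasma membrane the glutamine transporter Slc38a2 was the brightest, with a mean of 13.81. Means of at least 10 were reached by 28 of the 115 members and of at least 12 by 8.

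Fatty acid and choline carriers held the largest difference of all. Slc27a1, which takes up long-chain fatty acids and couples them to coenzyme A, was at 9.13 and 9.39 in the arrays labelled shMCT-1, against 10.38 and 10.23 in NC. The groups were far apart, with group means of 9.26 ± 0.187 and 10.31 ± 0.107 (SD, n = 2 each), a level 2.06-fold lower (difference -1.05, SE 0.142, 95% interval -1.42 to -0.67, adjusted p = 0.882, limma). Leaving out 1 array at a time gave differences from -1.18 to -0.91. Its relative Slc27a4 was at 6.05 and 6.05, against 6.01 and 6.13 in NC, with overlap.

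Of the 3 expressed choline transporter-like members of family 44, Slc44a1, the ubiquitous choline carrier, was at 9.47 and 9.42 in the arrays labelled shMCT-1, against 9.92 and 9.67 in NC. The groups were apart, with a difference of -0.35 that became -0.23 without NC replicate 1. Slc44a2 and Slc44a3 followed the replicate numbers instead. Slc44a3 was at 7.27 and 6.46 in the arrays labelled shMCT-1 and 7.55 and 6.16 in NC, high in replicate 1 of either group and low in replicate 2. Of the 5 members of this substrate group 2 were lower with separate arrays, as were 20.8% of the other named genes. In 4 of the 5 the mean was lower, and the median difference was -0.13. That median turned on single arrays, from -0.56 when NC replicate 2 was left out to -0.017 when shMCT-1 replicate 2 was.

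Carnitine carriers stand next to fatty acid uptake, since carnitine esters carry fatty acids into mitochondria. Slc22a5, the plasma membrane carnitine transporter, was at 6.19 and 6.36 in the arrays labelled shMCT-1, against 6.75 and 6.46 in NC. Slc25a20, the exchanger of carnitine and acylcarnitine in the inner mitochondrial membrane, was at 8.43 and 8.47, against 8.91 and 8.66 in NC. Both were lower with separate arrays, with differences of -0.33 and -0.34, and of -0.18 and -0.22 without NC replicate 1. These were brought together after their values were seen.

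The organic ion and bile acid group had a median of -0.33 over 5 members, which was -0.18 without NC replicate 1, and 4 of them were lower with separate arrays, as were 14% of all rows and 20.8% of the other named genes. Its median was the lowest of the 13 substrate groups over all 4 arrays, but another group was lower when NC replicate 1, NC replicate 2 or shMCT-1 replicate 1 was left out. Slc22a4, the ergothioneine transporter, was at 6.75 and 7.03 in the arrays labelled shMCT-1, against 7.65 and 7.28 in NC, lower with separate arrays (difference -0.57, SE 0.181). Without NC replicate 1 the difference was -0.39. Slc22a23, an orphan of the same family, differed by -0.29, and by -0.15 without NC replicate 1, and Slc10a7, a member of the bile acid carrier family needed for skeletal growth, by -0.41 (SE 0.137). All 3 expressed members of family 22 thus had a lower mean, and all 3 differences were smaller without NC replicate 1. Slc22a4 and Slc22a5 are both on chromosome 11. Slc10a3 was the 1 member with a higher mean, at 6.85 and 7.51 against 6.23 and 7.09 in NC, with overlap, and its difference of 0.52 was 0.084 without NC replicate 1.

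**Figure D2:**
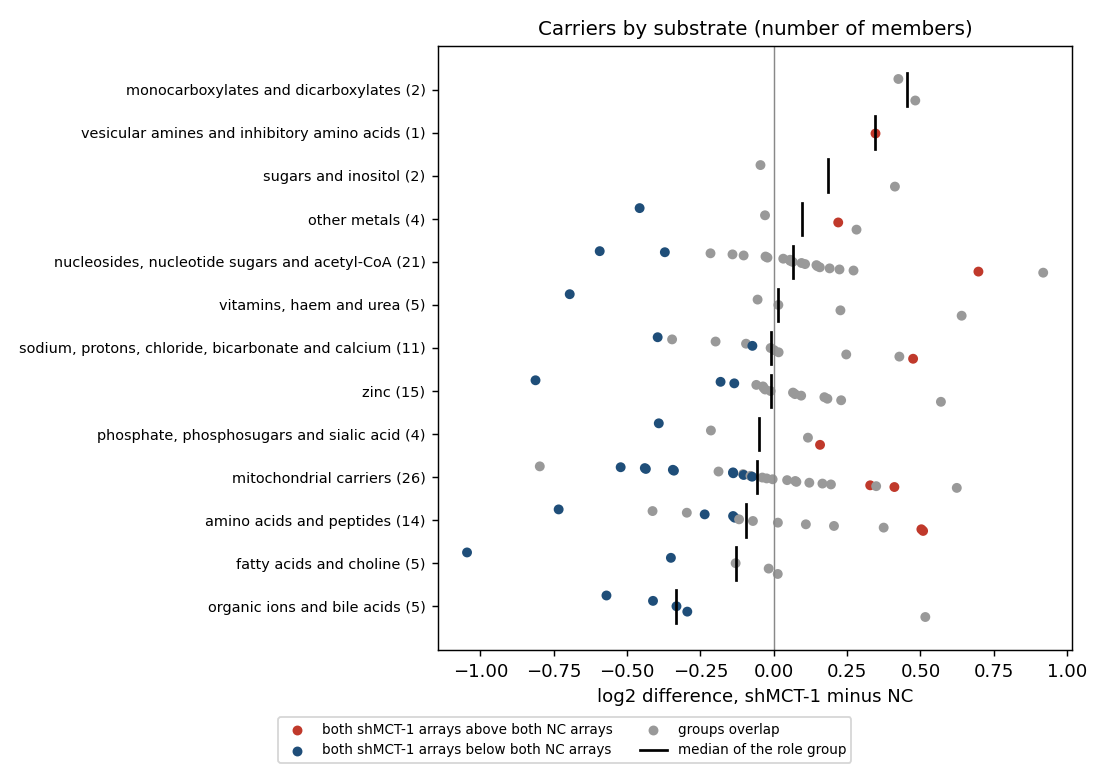
Log2 differences (shMCT-1 minus NC) of the 115 carriers by substrate group, with the number of members in parentheses. Each point is 1 member, red where both arrays labelled shMCT-1 lie above both NC arrays, blue where both lie below and grey where groups overlap, and black bars mark group medians. Group medians run from -0.33 for organic ions and bile acids to 0.45 for the 2 monocarboxylate carriers. The median of these 2 was -0.00064 without NC replicate 1 and 0.91 without NC replicate 2.

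Amino acid and peptide carriers went both ways, with 6 of 14 members higher and 8 lower and a median of -0.094 (-0.11 to 0.012 with 1 array left out), and 0 passed the adjusted threshold. The pair of sodium-coupled neutral amino acid transporters that supply glutamine to the cytosol was higher. Slc38a2 was at 14.15 and 13.97 in the arrays labelled shMCT-1, against 13.68 and 13.44 in NC. Slc38a1 was at 12.82 and 13.16, against 12.31 and 12.65 in NC. The groups did not overlap in either gene. The levels were 1.42-fold higher for Slc38a2 (difference 0.50, SE 0.141) and 1.42-fold higher for Slc38a1 (difference 0.51, SE 0.186), with an adjusted p of 0.882 for each in limma. Without NC replicate 1 the differences were 0.62 and 0.34, so Slc38a2 did not turn on that array, and without shMCT-1 replicate 2 the difference of Slc38a1 was 0.34. The genes are on chromosome 15, as is Slc39a4, which was lower.

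Other members of family 38 were lower with separate arrays. Slc38a7, which lets glutamine out of lysosomes, was at 6.94 and 7.0 in the arrays labelled shMCT-1, against 8.02 and 7.38 in NC. Its level was 1.66-fold lower (SE 0.231 log2), yet the NC arrays were 0.63 apart, and the difference of -0.73 became -0.42 without NC replicate 1. Slc38a9, a lysosomal arginine sensor upstream of mTORC1, differed by -0.14 and Slc38a10 by -0.13. The sixth member of the family, Slc38a6, overlapped with a difference of 0.11.

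ATF4 is the transcription factor of the amino acid response. Of the 4 carriers listed here as its known targets, 3 had a higher and 1 a lower mean. The amino acid carriers that the rule left out were not in this list, so it does not cover them. Besides Slc38a2 the 4 were Slc1a5, the exchanger of glutamine and other neutral amino acids, the glycine transporter Slc6a9, and Slc7a3. Slc7a3, a cationic amino acid transporter with a mean of 3.83, was too dim to be a member. Slc1a5 was at 10.85 and 11.59 in the arrays labelled shMCT-1, against 10.33 and 11.36 in NC. Slc6a9 was at 7.84 and 7.05, against 8.74 and 6.98 in NC. Both overlapped, and both turned sign without NC replicate 1. The differences of Slc1a5 were 0.37 with and -0.14 without that array, and those of Slc6a9 -0.41 and 0.47. Slc6a9 had its highest level in NC replicate 1, where the stress gene Ddit3 was at 10.39 against 6.65 and 6.34 in the arrays labelled shMCT-1 and 6.78 in NC replicate 2. Atf4 itself was at 10.0 and 10.18 in the arrays labelled shMCT-1, against 9.94 and 9.37 in NC. It was higher with separate arrays, as were 18.5% of the other named genes, and the groups only just parted. Its difference of 0.44 was 0.72 without NC replicate 1 and 0.15 without NC replicate 2.

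Among further amino acid carriers, the creatine transporter Slc6a8 was lower with separate arrays, at 9.0 and 9.16 in the arrays labelled shMCT-1, against 9.28 and 9.34 in NC. The taurine transporter Slc6a6 was at 13.02 and 12.82, against 12.88 and 12.93 in NC, with overlap. Slc7a6, a light chain of the 4F2 transporter that exchanges basic and neutral amino acids, differed by 0.21 with overlap and by -0.14 without NC replicate 1, and Slc15a4, a lysosomal histidine and peptide carrier, by -0.071.

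Mitochondrial carriers of family 25 were the largest set, with 26 members out of 46 measured. Of the 26, 10 were higher and 16 lower, with a median of -0.056 (-0.11 to -0.0021 with 1 array left out). With separate arrays 2 of the 26 were higher and 9 lower, against 18.5% and 20.8% of the other named genes. Slc25a13, known as citrin, the aspartate/glutamate carrier of the malate-aspartate shuttle, was at 11.04 and 11.06 in the arrays labelled shMCT-1, against 10.57 and 10.70 in NC. Its replicates lay close together, 11.05 ± 0.0171 and 10.64 ± 0.087 (SD, n = 2 each), and its level was 1.33-fold higher (SE 0.109 log2). The difference of 0.41 was 0.35 without NC replicate 1. The paralogue Slc25a12, which does the same exchange, was lower with separate arrays, at 10.49 and 10.54 against 10.65 and 10.66 in NC. The difference was -0.14, opposite in sign to that of Slc25a13, and the difference between the 2 genes was not tested. Slc25a17, the peroxisomal member that carries coenzyme A and other cofactors, was at 11.51 and 11.78 in the arrays labelled shMCT-1, against 11.23 and 11.41 in NC, and was higher with separate arrays.

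Lower mitochondrial members with separate arrays included Slc25a46, an outer membrane protein with a part in mitochondrial shape. It was at 11.14 and 11.20 in the arrays labelled shMCT-1, against 11.77 and 11.61 in NC. Its level was 1.44-fold lower (difference -0.52, SE 0.116, 95% interval -0.83 to -0.22), and the difference was -0.44 without NC replicate 1. Slc25a37, mitoferrin-1, an importer of iron, was at 9.53 and 9.63 in the arrays labelled shMCT-1, against 10.18 and 9.87 in NC, and its difference of -0.44 was -0.29 without NC replicate 1. Its paralogue Slc25a28, mitoferrin-2, which is also known as a target of interferon, was at 7.30 and 7.61, against 7.44 and 7.32 in NC, with NC replicate 1 inside the range of the other arrays. Slc25a15, the ornithine carrier, was at 7.21 and 7.47, against 7.52 and 7.84 in NC. Slc25a30 was at 9.50 and 9.70, against 10.34 and 9.73 in NC, where the nearest arrays were 9.70 and 9.73. It differed by -0.44 and by -0.13 without NC replicate 1.

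Slc25a48, a choline-linked carrier of the inner membrane, had the largest difference of the family, -0.80, but overlapped. It was at 8.14 and 7.43 in the arrays labelled shMCT-1, against 9.22 and 7.94 in NC. Within each replicate number the array labelled shMCT-1 was below the NC array. The difference was -0.16 without NC replicate 1, -1.15 without shMCT-1 replicate 1 and -1.44 without NC replicate 2. At the other end Slc25a32, which carries folate and FAD into mitochondria, was at 9.69 and 10.23 in the arrays labelled shMCT-1, against 8.89 and 9.79 in NC. It too overlapped, and 0.62 became 0.17 without NC replicate 1. Slc25a1, the citrate exporter that feeds lipid synthesis and is known as a target of SREBP factors, was at 9.36 and 9.15, against 9.37 and 9.30 in NC, with overlap. The phosphate carrier Slc25a3 and the oxoglutarate carrier Slc25a11 differed by 0.077 and -0.039, both with overlap. Slc25a16, Slc25a39 and Slc25a51, the last of which carries NAD, were lower with separate arrays with differences of -0.14, -0.074 and -0.10. Their groups only just parted, with gaps of 0.019, 0.0019 and 0.045 between the nearest arrays. Slc25a44, a carrier of branched-chain amino acids, was at 7.16 and 7.73 in the arrays labelled shMCT-1, against 6.81 and 7.39 in NC, and its difference of 0.35 was 0.057 without NC replicate 1. The pyrimidine nucleotide carriers Slc25a33 and Slc25a36 (0.12 and -0.024), the dicarboxylate carrier Slc25a10 (0.17), Slc25a40 (-0.19) and Slc25a43 (0.046) overlapped.

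Nucleoside, nucleotide sugar and acetyl-CoA carriers held 21 members, 14 higher and 7 lower. With separate arrays 1 of the 21 was higher and 2 were lower, against 18.5% and 20.8% of the other named genes. Slc29a2, an equilibrative nucleoside transporter, had the largest higher difference of all members, 0.92 (SE 0.572). It was at 9.38 and 10.45 in the arrays labelled shMCT-1, against 8.32 and 9.68 in NC. The groups overlapped, as shMCT-1 replicate 1 was 0.30 below NC replicate 2, and leaving out NC replicate 1 gave 0.24, leaving out shMCT-1 replicate 2 0.39. Slc35g1, a membrane protein of family 35, was at 8.29 and 8.80 in the arrays labelled shMCT-1, against 7.45 and 8.25 in NC, with a gap of 0.039 between the nearest arrays. Its difference of 0.70 (SE 0.326) was 0.30 without NC replicate 1.

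Slc35d2, a Golgi carrier of nucleotide sugars, was at 6.96 and 6.83 in the arrays labelled shMCT-1, against 7.76 and 7.21 in NC, 1.51-fold lower with separate arrays. The difference of -0.59 was -0.32 without NC replicate 1. Slc29a3, the lysosomal nucleoside transporter, was at 6.77 and 6.80, against 7.30 and 7.01 in NC, lower with separate arrays (difference -0.37, and -0.23 without NC replicate 1). Slc29a1, the ubiquitous nucleoside transporter, overlapped at 6.93 and 7.36, against 6.89 and 7.22 in NC. The 3 nucleoside members thus had no common direction. The Golgi carriers Slc35a1 for CMP-sialic acid, Slc35b2 and Slc35b3 for the sulphate donor PAPS, and Slc35d1 for UDP sugars differed by 0.065, 0.033, 0.056 and 0.16, all with overlap. Slc33a1, which brings acetyl-CoA into the endoplasmic reticulum, differed by 0.11. The other family 35 members (Slc35a3, Slc35a4, Slc35a5, Slc35b1, Slc35b4, Slc35c2, Slc35e1, Slc35e2, Slc35e3, Slc35e4 and Slc35f5) overlapped between the groups, from -0.22 for Slc35f5 to 0.27 for Slc35c2, which were -0.012 and 0.058 without NC replicate 1. Slc35a4 was the brightest of them, at 11.26 and 11.87 in the arrays labelled shMCT-1, against 10.93 and 11.91 in NC, with replicate 2 above replicate 1 in either group.

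Zinc carriers fall into 2 families that work against each other, family 30 moving zinc out of the cytosol, also into vesicles, and family 39 bringing it in. High zinc is sensed by the factor MTF-1 (gene Mtf1), which binds metal response elements and raises the metallothioneins Mt1 and Mt2 and the exporter Slc30a1. To show such elements, the 250 bases before the annotated start are given for Slc30a1, for Slc30a4, which had the most matches in 1 window among the 12 of 15 zinc members with a sequence here, and for Mt2. Slc39a4, Slc39a6 and Slc39a14 were not scanned. Capitals mark each match to TGCACNC or TGCGCNC on either strand (RefSeq, GRCm38.p6, chr1:191906531-191906780, plus strand for Slc30a1, chr2:122702664-122702913, minus strand for Slc30a4, chr8:94172368-94172617, plus strand for Mt2).
Slc30a1: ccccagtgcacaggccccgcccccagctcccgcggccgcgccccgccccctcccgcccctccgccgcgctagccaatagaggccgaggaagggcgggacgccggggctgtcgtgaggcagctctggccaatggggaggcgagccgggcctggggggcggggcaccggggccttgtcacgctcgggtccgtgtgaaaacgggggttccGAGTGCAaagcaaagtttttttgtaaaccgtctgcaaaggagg
Slc30a4: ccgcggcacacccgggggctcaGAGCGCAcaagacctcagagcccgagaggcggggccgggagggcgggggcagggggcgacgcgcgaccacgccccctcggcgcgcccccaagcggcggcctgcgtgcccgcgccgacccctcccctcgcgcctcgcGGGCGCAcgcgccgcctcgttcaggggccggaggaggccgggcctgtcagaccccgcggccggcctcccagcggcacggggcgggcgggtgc
Mt2: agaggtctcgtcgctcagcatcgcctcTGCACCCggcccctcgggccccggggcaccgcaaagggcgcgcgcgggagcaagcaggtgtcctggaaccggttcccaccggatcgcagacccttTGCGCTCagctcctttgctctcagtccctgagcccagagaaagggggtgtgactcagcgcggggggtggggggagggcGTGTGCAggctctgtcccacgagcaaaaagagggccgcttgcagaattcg
Slc30a1 held 1 match, Slc30a4 2 and Mt2 3 in these windows. Of 32851 such windows of all genes 21.4% held at least 1 match, against 28.6% of 119 windows of 91 members and 5 of 14 windows of zinc members. A match describes letters only.

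Slc39a4, the zinc importer of the plasma membrane whose loss causes zinc deficiency, was the zinc member with the largest difference. It was at 11.69 and 11.62 in the arrays labelled shMCT-1, against 12.61 and 12.32 in NC. The groups were apart, at 11.65 ± 0.0547 and 12.47 ± 0.203 (SD, n = 2 each), a level 1.76-fold lower (difference -0.81, SE 0.14, 95% interval -1.18 to -0.44, adjusted p = 0.882, limma). Leaving out 1 array at a time gave -0.96 to -0.67. The other importers differed far less. Slc39a1 was lower with separate arrays (difference -0.13), while Slc39a6, Slc39a7, Slc39a9, Slc39a10, Slc39a11, Slc39a13 and Slc39a14 overlapped with differences from -0.059 to 0.23. The last value, of Slc39a13, was -0.012 without NC replicate 1.

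Of the 6 members of family 30, Slc30a9 was lower with separate arrays, at 10.44 and 10.54 in the arrays labelled shMCT-1, against 10.63 and 10.72 in NC. The other 5 overlapped. Slc30a1, the exporter of the plasma membrane, was at 6.82 and 7.35, against 6.70 and 7.10 in NC, higher in replicate 2 than in replicate 1 of either group. Slc30a6, of the Golgi, was at 9.35 and 9.96, against 8.72 and 9.45 in NC, and its difference of 0.57 was 0.20 without NC replicate 1. Slc30a5 and Slc30a7, of the secretory pathway, differed by 0.073 and 0.094. Over the 15 zinc members 7 were higher and 8 lower, with a median of -0.01 that ran from -0.13 to 0.18 with 1 array left out.

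The metallothioneins Mt1 and Mt2 and the sensor gene Mtf1 were higher with separate arrays, as were 18.5% of the other named genes. None of the 3 passed the adjusted threshold. Mt1 was at 15.86 and 16.43 in the arrays labelled shMCT-1, against 15.25 and 15.80 in NC. Mt2 was at 16.49 and 17.03, against 16.15 and 16.32 in NC. Their differences were 0.62 (SE 0.277) and 0.52 (SE 0.211), and leaving out shMCT-1 replicate 2 gave 0.34 and 0.25. Leaving out NC replicate 1 gave 0.35 and 0.44. Mt1 and Mt2 are close relatives whose probes may share signal. Mtf1 was at 7.04 and 7.28 in the arrays labelled shMCT-1, against 6.92 and 7.0 in NC. The nearest arrays of the groups lay at 15.86 and 15.80 for Mt1 and at 7.04 and 7.0 for Mtf1. In all 3 genes replicate 2 lay above replicate 1 in either group. The metallothioneins stood higher in the arrays in which Slc39a4 stood lower. A link between them was not tested, and zinc itself was not measured.

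**Figure D3:**
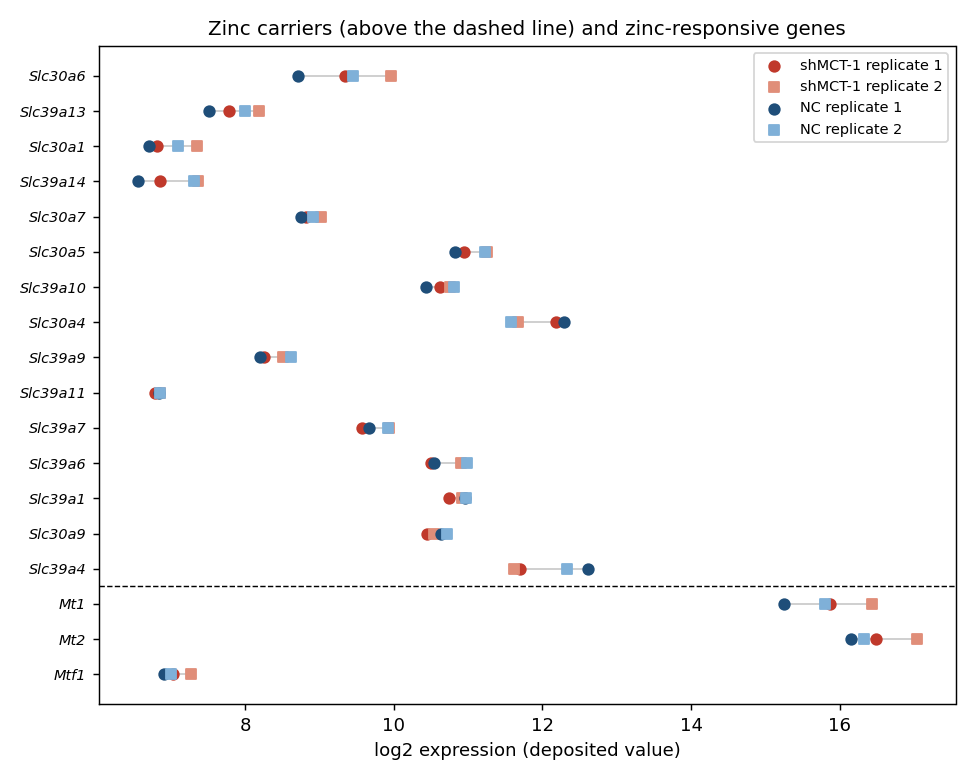
Log2 expression of the 15 zinc carriers, ordered by difference, and below the dashed line of Mt1, Mt2 and Mtf1. Each point is 1 array, with the arrays labelled shMCT-1 in red and the NC arrays in blue. Slc39a4 lies lower, and the metallothioneins higher, in both arrays labelled shMCT-1, while 12 of the other carriers overlap between the groups.

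Carriers of other metals differed in single members. Slc31a2, a copper carrier of internal membranes, was at 8.26 and 8.10 in the arrays labelled shMCT-1, against 8.92 and 8.35 in NC, lower with separate arrays (difference -0.46, and -0.17 without NC replicate 1). Slc31a1, the main copper importer, was at 9.69 and 9.85, against 9.83 and 9.76 in NC, with overlap. Slc11a2, an importer of ferrous iron, differed by 0.28 with overlap, and by 0.047 without NC replicate 1. Slc41a1, a magnesium transporter, differed by 0.22, with arrays that only just parted, and by 0.073 without NC replicate 1.

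Ion carriers gave 5 higher and 6 lower members of 11. Slc4a11, which conducts protons and ammonia, was at 8.73 and 8.66 in the arrays labelled shMCT-1, against 8.11 and 8.33 in NC. It was 1.39-fold higher with separate arrays (difference 0.48, SE 0.127) with a difference of 0.36 without NC replicate 1. Slc12a7, a potassium-chloride cotransporter, was at 7.03 and 7.20, against 7.58 and 7.45 in NC, lower with separate arrays (difference -0.40, SE 0.124). Slc12a2, the sodium-potassium-chloride cotransporter and the brightest ion carrier, overlapped at 12.62 and 12.84, against 12.79 and 13.07 in NC. The sodium-proton exchangers of family 9 differed in sign. Slc9a8, of the Golgi, was at 8.45 and 8.96 in the arrays labelled shMCT-1, against 8.09 and 8.46 in NC, and Slc9a5 was at 6.46 and 6.96, against 6.88 and 7.23 in NC, both with overlap. Their differences of 0.43 and -0.35 were 0.24 and -0.52 without NC replicate 1. The bicarbonate carriers Slc4a2, Slc4a4 and Slc4a8, the potassium-chloride cotransporter Slc12a4 and the chloride carrier Slc26a9 overlapped, from -0.094 for Slc4a4 to 0.25 for Slc26a9, which were 0.029 and -0.032 without NC replicate 1. In Slc4a8 and Slc12a4 replicate 2 lay above replicate 1 in either group.

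Many of these carriers draw on the sodium gradient that the sodium pump builds. Of its 4 measured subunits and partners the beta subunit Atp1b1 had the largest difference, at 9.60 and 9.81 in the arrays labelled shMCT-1, against 8.59 and 8.55 in NC. Its level was 2.2-fold higher with separate arrays (difference 1.14, SE 0.124, adjusted p = 0.882, limma), with differences between 1.03 and 1.24 with 1 array left out. Atp1b3, the brighter beta subunit, overlapped at 14.13 and 14.31, against 13.86 and 14.22 in NC. Bsg, the chaperone of monocarboxylate transporters, was at 15.51 and 15.59, against 15.37 and 15.54 in NC. Among mitochondrial transporters with other names Mtch2, a family 25 relative of the outer membrane, was higher with separate arrays by 0.32, while Mtch1 was lower with separate arrays (difference -0.31, and -0.17 without NC replicate 1). In the lists of the sodium pump, monocarboxylate transporter chaperones, other mitochondrial and other plasma membrane transporters 4, 2, 9 and 8 genes were measured, and 0 passed the adjusted threshold.

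The vitamin group showed its largest differences in members led by NC replicate 1. Slc49a4, a lysosomal membrane carrier, was at 8.03 and 7.77 in the arrays labelled shMCT-1, against 8.98 and 8.22 in NC, lower with separate arrays (difference -0.70, and -0.32 without that array). Slc19a2, a thiamine transporter, was at 8.27 and 8.87, against 7.54 and 8.33 in NC, with overlap, and 0.64 became 0.24 without NC replicate 1. Slc19a1, the reduced folate carrier, was at 8.15 and 8.85, against 7.81 and 8.74 in NC, also with overlap, and 0.23 became -0.24 without NC replicate 1. Slc23a2, a vitamin C transporter, and Slc48a1, a haem transporter, overlapped as well, with differences of -0.055 and 0.016.

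The remaining members were few. Slc18b1, a vesicular polyamine carrier, was at 7.07 and 7.30 in the arrays labelled shMCT-1, against 6.79 and 6.88 in NC, higher with separate arrays by 0.35 (SE 0.129). Slc37a3, a relative of the sugar phosphate carriers, was higher with separate arrays by 0.16. The phosphate importers Slc20a1 and Slc20a2 differed by -0.21 and 0.12, both with overlap. Slc17a5, the lysosomal exporter of sialic acid, was at 9.61 and 9.55 in the arrays labelled shMCT-1, against 10.29 and 9.65 in NC, lower with separate arrays (difference -0.39, and -0.072 without NC replicate 1). The monocarboxylate family relatives Slc16a6 and Slc16a13 differed by 0.48 and 0.42, both with overlap. Without NC replicate 1 the differences were -0.0056 and 0.0043, and without NC replicate 2 they were 0.97 and 0.85. In both genes the array labelled shMCT-1 was above the NC array within each replicate number. Of the sugar and inositol group, Slc5a6, which in fact carries biotin and pantothenate, differed by 0.41, and by 0.17 without NC replicate 1, and Slc50a1, a sugar carrier of the Golgi, by -0.045, both with overlap.

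All 4 members at least 1.5-fold higher (Slc29a2, Slc35g1, Slc19a2 and Slc25a32) had their lowest value in NC replicate 1 and their highest in shMCT-1 replicate 2, and 0 of the 4 kept a 1.5-fold difference without NC replicate 1. Within each replicate number the array labelled shMCT-1 was above the NC array in all 4. With the replicate number as a block, members with an unadjusted p under 0.05 and 1.5-fold higher numbered 4, against 0 without it. The labels do not state that the numbers pair the arrays, and the share over other genes with the block is not given. Of the 6 at least 1.5-fold lower, 5 had separate arrays and 2, Slc27a1 and Slc39a4, kept 1.5-fold without it. Over all 115 members NC replicate 1 was the lowest array in 45.2% and shMCT-1 replicate 2 the highest in 42.6%, against 39.8% and 38.1% of the other named genes of that level. In 79 of 115 members the NC arrays differed from each other by more than the group means did. Single arrays vary more than means of 2 arrays, so these measures are unlike, and no share over other genes is given. The median difference between replicates, taken without sign, was 0.26 in the arrays labelled shMCT-1 and 0.31 in NC, above the 0.17 and 0.20 of the other named genes, and this comparison was not tested.

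**Figure D4:**
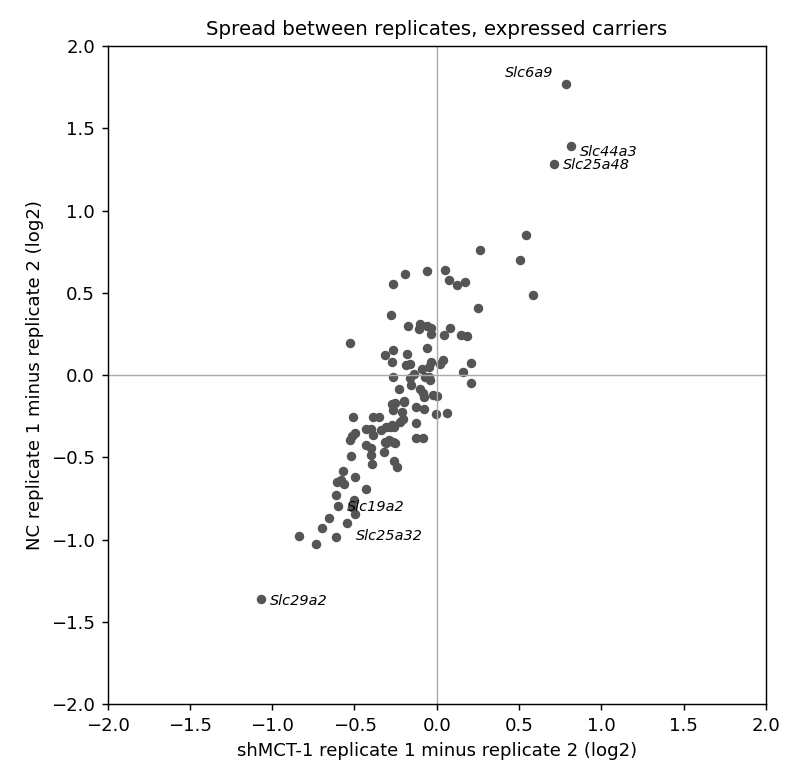
Replicate 1 minus replicate 2 in the arrays labelled shMCT-1 (horizontal) and in NC (vertical), in log2 units, 1 point for each of the 115 carriers. In 71 members replicate 1 is lower than replicate 2 in both groups, in 20 it is higher in both, and in 24 the groups go opposite ways. Replicate 1 is lower in both groups in 61.7% of members and 49.3% of the other genes of mean at least 6. Slc29a2 lies at the low end, and Slc6a9, Slc44a3 and Slc25a48 at the high end.

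Around the level that made a carrier a member, the 3 just inside were Slc36a1, Slc36a4 and Slc26a2 with means of 6.05, 6.05 and 6.06, and the 3 just outside were Slc37a4, Slc52a3 and Slc39a3 with 5.94, 5.95 and 5.99. Their differences ran from -0.30 for Slc36a4, which was -0.053 without NC replicate 1, to 0.27 for Slc52a3. Of the 228 carriers under the level that the rule would otherwise have admitted, 157 were below the median mean of all rows, 3.68. Also under the level were the interferon-linked carriers Slc11a1 and Slc15a3, with means of 3.40 and 4.15.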

How the data were processed

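RNA of 4 cultures was measured on arrays, 2 labelled shMCT-1 and 2 NC, grouped by title. Affymetrix Expression Console and RMA are the tools named, per the submitters' processing notes, with versions and build being not given in the sources used here. Array values as deposited, on the log2 scale of the authors, ranged over 1.29 to 19.9. They were used as they stand, and 0 columns were left out. Symbols came from the platform annotation (30604 rows with 1 symbol, 2146 with several and 33206 not listed there), 827 of them updated with the RefSeq GRCm38.p6 gene table.

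All comparisons used limma 3.58.1 under R 4.3.3 (lmFit, eBayes) over 65956 rows, two-sided, with Benjamini-Hochberg adjustment over all rows and 2 residual degrees of freedom. The fit was also run on simulated arrays with independent noise and no shift between replicates. That run therefore tells nothing about such shifts in these arrays. The members, lists, substrate groups (by family number) and naming rule were chosen with earlier results of these data known. The rule took, among other parts, up to 10 members per direction with separate arrays and the lowest p, the largest difference in each substrate group, the brightest members and those nearest the level threshold. It gave 43 genes, and the remaining named genes were picked with their values in view. Alternatives changed moderation, filters, scaling, weights, block, level and arrays. The number of arrays limits the precision.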

Additional observations from a re-analysis of the deposited data

How the results depend on the processing

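No member passed the adjusted threshold under any setting with all 4 arrays (other moderation, filters, scalings, weights, the replicate block and other levels). Members at an unadjusted p under 0.05 numbered 5 without moderation and 36 with the replicate block. Members with an unadjusted p under 0.05 and 1.5-fold lower numbered 4, and 2 without moderation, 2 in a test of excess over 1.2-fold, and 2 to 13 with 1 array left out (13 without NC replicate 2). Higher ones numbered 0, and 4 with the replicate block. The shares over other genes under these settings are not given, so the changes in count are not results about carriers. Left-out arrays moved the counts of members with separate groups to between 10 and 54 for higher and between 35 and 49 for lower ones. Those groups had fewer arrays to separate, and this alternative was chosen after seeing the data. The median difference over members stayed between -0.085 and 0.079 when 1 array was left out. Over the 43 named genes 631 repeats kept direction and side of the threshold and 11 turned sign. Settings that change only the moderation, row filter, weights or block leave each difference as it is, so those repeats could not turn sign. No gene passed the threshold in any setting, so the side never changed. Smaller differences of the same sign counted as kept, such as -0.80 and -0.16 for Slc25a48 with and without NC replicate 1. With 1 array left out the differences ran from -0.14 to 0.13 for Slc25a5, -0.22 to 0.0085 for Slc25a4, -0.26 to 0.12 for Slc37a4, -1.30 to 0.47 for Slc6a9, -0.14 to 0.89 for Slc1a5, -0.044 to 0.11 for Slc15a3, -0.082 to 0.23 for Slc25a28 and -0.18 to 0.024 for Slc25a1, and Slc15a3 was -0.014 after a further quantile normalization. The cause of these changes was not tested. The labels do not say that a replicate number marks a shared batch or day. Replicate 1 minus replicate 2 correlated between the groups with r = 0.87 across the 115 members. Across the other named genes of mean at least 6 r was 0.76, and across all rows 0.42. Genes are no independent replicates, so pairing of the numbers is a hint from the data only. With 2 arrays a group, and a lone array assumed to vary like the other group when 1 is left out, small differences could not be resolved.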
